A study of Mus musculus with 26 samples.

Results

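Efferocytosis, the uptake of dying cells, was examined through 10 genes chosen by symbol: the receptor kinases Mertk, Axl and Tyro3, their ligands Gas6 and Pros1, the bridging protein Mfge8, and the uptake receptors Timd4, Stab1, Lrp1 and Itgb5. All 10 were among the 23420 gene symbols of the table, and 9 of them passed the filter for testing (at least 10 normalized counts in at least 2 libraries), as did 13311 genes in all. Tyro3 did not pass it. The 26 RNA-seq libraries came from sorted antigen-presenting cells of 2 genotypes, mTORΔAPC (KO) and wild-type littermates (WT). For each genotype there were 2 libraries of spleen CD8a DCs (dendritic cells) and of spleen CD11b+ DCs, and 3 each of lung CD11b+ DCs, alveolar macrophages and lung inflammatory DCs, which makes 10 groups. The lung CD11b+ DCs and alveolar macrophages were labelled steady state, and the labels give no treatment for the spleen DCs. The inflammatory DCs came from mice given house dust mite extract into the nose, 25 µL at 1 mg/mL, 3 times a week, and were analysed on day 17 by their labels or after 18 days by the protocol. The labels name neither the promoter that drove deletion nor the deleted part of Mtor, and give no age. They do not say whether libraries came from separate animals, so the p-values measure only the spread between samples, which may be technical.

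Dying cells expose phosphatidylserine, a lipid that phagocytes recognise as an "eat me" signal. Some receptors bind it directly, as Timd4 (TIM-4) and Stab1 (stabilin-1) do, while others read it through bridging proteins. Gas6 links it to the TAM receptors Tyro3, Axl and Mertk, and protein S (Pros1) links it to Tyro3 and Mertk. Mfge8 links it to the integrins that contain the beta5 chain Itgb5 or beta3. Lrp1 is a large endocytic receptor that takes part in uptake through calreticulin. TAM receptors also restrain inflammatory signalling in macrophages and DCs, and alveolar macrophages are known for continuous clearance in the airspaces.

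Promoter sequence is shown for 4 members whose level differed between KO and WT alveolar macrophages, with 2 that rose there (Mfge8, Stab1) and 2 that fell (Axl, Pros1). Each run is the 250 bases before the RefSeq start site in GRCm38.p6, 5′ to 3′ on the gene's strand. The RefSeq start of Axl lies 28 bases before the GENCODE one, and the other 3 starts are the same in both. Capitals mark matches to the motifs searched.
Mfge8, chr7:79149061-79149310, minus strand: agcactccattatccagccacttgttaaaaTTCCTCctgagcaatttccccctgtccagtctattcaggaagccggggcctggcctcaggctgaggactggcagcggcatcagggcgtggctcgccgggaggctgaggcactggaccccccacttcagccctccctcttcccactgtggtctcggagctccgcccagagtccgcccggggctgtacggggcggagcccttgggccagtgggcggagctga
Stab1, chr14:31168642-31168891, minus strand: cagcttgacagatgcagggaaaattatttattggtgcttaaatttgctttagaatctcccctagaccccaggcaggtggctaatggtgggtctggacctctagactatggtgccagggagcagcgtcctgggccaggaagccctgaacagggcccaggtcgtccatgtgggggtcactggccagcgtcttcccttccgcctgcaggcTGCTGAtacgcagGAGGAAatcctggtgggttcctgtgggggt
Axl, chr7:25788734-25788983, minus strand: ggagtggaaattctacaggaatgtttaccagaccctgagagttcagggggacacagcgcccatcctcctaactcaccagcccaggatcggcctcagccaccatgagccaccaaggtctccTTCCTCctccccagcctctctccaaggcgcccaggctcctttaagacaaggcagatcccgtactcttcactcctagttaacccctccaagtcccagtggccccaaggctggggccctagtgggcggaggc
Pros1, chr16:62854057-62854306, plus strand: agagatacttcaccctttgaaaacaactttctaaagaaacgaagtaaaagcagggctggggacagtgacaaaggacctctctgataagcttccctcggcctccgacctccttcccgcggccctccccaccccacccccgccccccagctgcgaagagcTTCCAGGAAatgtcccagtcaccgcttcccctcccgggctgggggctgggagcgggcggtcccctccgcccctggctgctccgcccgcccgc
The PU.1 core GAGGAA, searched on both strands, stands at -220 to -215 from the Mfge8 start site, at -30 to -25 for Stab1 and at -130 to -125 for Axl. It was present in 23.4% of 32536 distinct promoters of the same length. The MAF motif TGCTGA, searched on both strands, stands at -43 to -38 for Stab1, and 16.1% of promoters held one. The Pros1 run holds TTCCAGGAA at -92 to -84, a match to the GAS letters TTCNNNGAA, which 7.04% of promoters held. Among the other members, Timd4 had 2 MAF motifs and Lrp1 1 GAS match. No member's run held the E-box CACGTG (6.04% of promoters) or the ISRE GAAANNGAAA (2.98%). PU.1 and ISRE letters can overlap in other promoters. A match is only a description of the letters in this window, and members that rose and members that fell both held the PU.1 core.

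Library depth lay between 7.37 and 14.1 M reads, and 12992 to 14407 genes were above 0 in each library. For Mtor, the targeted gene, KO and WT libraries did not overlap within any cell type. The fall was called in 4 cell types, from -2.93 on the log2 scale in spleen CD8a DCs to -0.70 in lung CD11b DCs, and it was not called in inflammatory DCs (-0.74, limma adjusted p = 0.0668). Sex-linked reads went with genotype in both spleen comparisons and in alveolar macrophages. The summed normalized count of 4 Y-linked genes was at most 2.3 in every WT library except those of inflammatory DCs. It was 659.5 to 3295.1 in the KO libraries of these 3 comparisons. Xist, the X-inactivation RNA of female cells, was 2352.7 to 5608.4 in the WT libraries outside inflammatory DCs. It was 3619.7 and 3092.4 in KO replicate 1 of spleen CD8a and CD11b DCs, which thus held both kinds of read, 12.0 and 21.4 in their KO replicate 2, and 571.9 to 2293.1 in KO alveolar macrophages. In these 3 comparisons genotype and the presence of Y-linked reads cannot be told apart, although their level varied within KO. Y-linked reads were present in all 6 libraries of inflammatory DCs, and among lung CD11b DCs in KO replicate 1. Lung CD11b DC libraries WT replicate 3 and KO replicates 2 and 3 had the fewest detected genes of all, 12992 to 13173. In WT spleen libraries, cDC1 markers, which mark CD8a-type DCs, summed to 59219.6 to 62224.8 in CD8a DCs and 8551.2 to 10599.1 in CD11b DCs. Markers of CD11b-type DCs summed to 5855.1 to 6713.6 and to 23467.3 to 23879.1. The cDC1 marker Clec9a was 5036.2 and 4545.3 in the WT CD8a DC libraries and at most 241.9 in any CD11b DC library. The WT CD8a DC libraries also held red pulp macrophage markers (sums of 35959.5 to 59304.4). In WT inflammatory DCs 10 of 14 alveolar macrophage markers were below every WT alveolar macrophage library and 2 above. One of these, Chi3l3, dominated the list (784486.7 to 1135997.0), and the sum of the other 13 was 38650.1 to 64297.5, against 90241.1 to 90634.8 in alveolar macrophages. All 9 conventional DC markers were higher in WT inflammatory DCs than in WT alveolar macrophages, with sums of 207571.8 to 244091.3 and 29140.9 to 30661.6.

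In the WT cells, Axl and Mertk transcripts were highest in alveolar macrophages and lowest in spleen CD11b DCs. Values are normalized read counts, each read count divided by the library's size factor. Mertk was 5314.3, 5285.1 and 4835.5 in the WT alveolar macrophage libraries and 2844.9, 3071.8 and 2991.8 in the WT inflammatory DCs. WT spleen CD8a DCs held 605.5 and 911.3, lung CD11b DCs 203.7, 112.1 and 64.5, and spleen CD11b DCs 19.7 and 67.7. In that order the groups' libraries were separate down to the last pair, lung and spleen CD11b DCs, which overlapped. Axl was 22850.1 to 23167.0 in WT alveolar macrophages, 7654.1 to 13754.4 in inflammatory DCs and 4193.6 to 6235.7 in lung CD11b DCs. It was 1699.3 and 3728.3 in WT spleen CD8a DCs and 336.5 and 466.4 in spleen CD11b DCs, with no overlap between any of the 5 WT groups. Per kb of annotated exon, the group mean of Axl was above that of Mertk in all 10 groups, 4567 against 1187 normalized counts per kb in WT alveolar macrophages and 1068 against 29.2 in WT lung CD11b DCs. Tyro3 was close to 0 throughout. Its highest library was a KO lung CD11b DC library with 18.9 normalized counts, and it was at 0 in all 6 alveolar macrophage libraries, so a level under the 3 reads that a count of 0 allows would not have been seen.

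**Figure D1:**
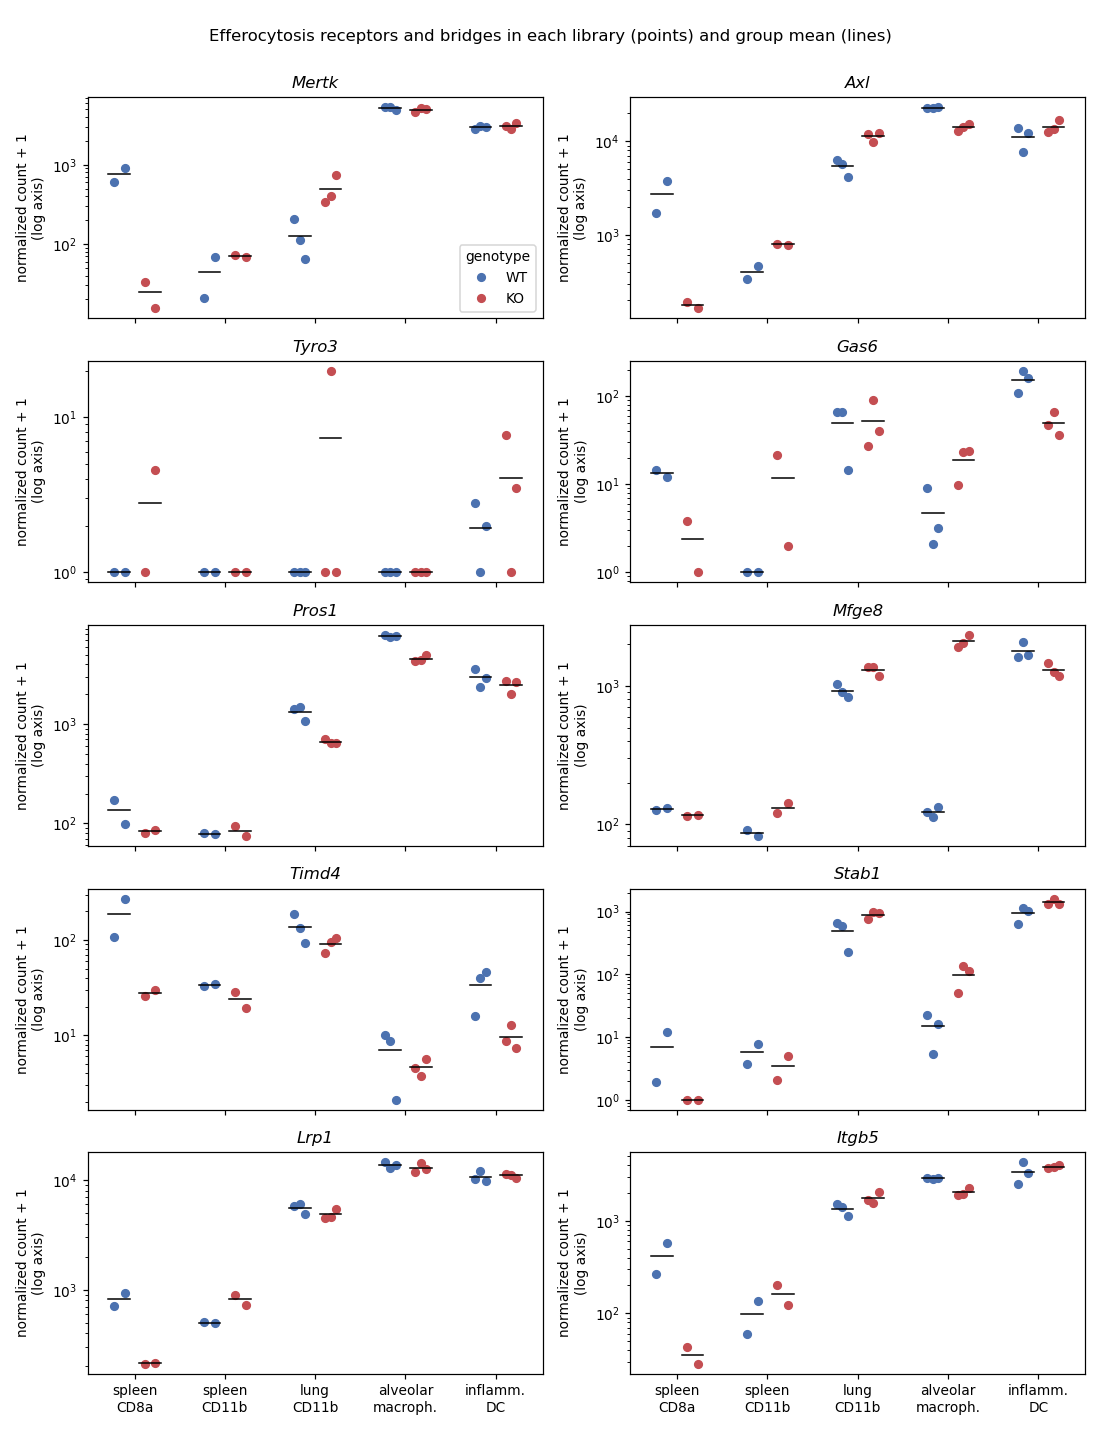
Each of the 10 members as normalized count + 1 (log axis) in all 26 libraries, grouped by cell type; blue points are WT, red points KO, and black lines group means. Mfge8 in alveolar macrophages stands at 111.5 to 133.4 in WT and 1905.1 to 2340.4 in KO, and Mertk in spleen CD8a DCs falls from 605.5 and 911.3 to 32.6 and 14.4.

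The ligands differed in level as well as in distribution. Pros1 was 7576.6 to 7909.2 in WT alveolar macrophages, 2388.4 to 3542.8 in inflammatory DCs, 1068.9 to 1484.5 in lung CD11b DCs, 98.3 and 170.4 in spleen CD8a DCs and 77.0 and 79.0 in spleen CD11b DCs. These 5 groups did not overlap. Gas6 was far lower, with 107.6 to 193.3 in WT inflammatory DCs, 13.7 to 66.1 in lung CD11b DCs, 1.1 to 8.0 in alveolar macrophages and no read in either WT spleen CD11b DC library. The group mean of Pros1 per kb exceeded that of Gas6 in every group, 1893 against 1.47 in WT alveolar macrophages. Mfge8 took another order: 1609.2 to 2069.7 in WT inflammatory DCs, 837.6 to 1024.8 in lung CD11b DCs, 125.0 and 130.8 in spleen CD8a DCs, 111.5 to 133.4 in alveolar macrophages and 81.3 and 89.7 in spleen CD11b DCs. Only the CD8a DC and alveolar macrophage libraries overlapped among these.

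The other uptake receptors fell into different patterns in WT cells. Lrp1 followed the order of Axl, from 12961.0 to 14457.1 in alveolar macrophages down to 491.8 and 507.8 in spleen CD11b DCs, with no overlap between groups. Itgb5 was highest in inflammatory DCs (2483.1 to 4261.4), a range that held the alveolar macrophage values (2836.8 to 2912.1), and lowest in spleen CD11b DCs (59.2 and 135.4). Stab1 was 637.4 to 1136.7 in inflammatory DCs and 228.1 to 657.6 in lung CD11b DCs, which overlapped, and at most 21.7 in the other WT groups. Timd4 was 106.2 and 271.7 in spleen CD8a DCs and 91.9 to 187.4 in lung CD11b DCs, which overlapped, and 1.1 to 9.1 in alveolar macrophages.

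The WT cell types were compared in 4 pairs with limma on log2(normalized count + 1), in a fit of all 10 groups, and a gene was called at a Benjamini-Hochberg adjusted p under 0.05. A log2 fold change on this scale understates the change of genes near 0. In spleen CD8a DCs against spleen CD11b DCs 8 of the 9 tested members were higher and 0 lower, where 12.2% of all tested genes were called higher and 10.8% lower. The largest was Mertk, by 4.30 ± 0.45 on the log2 scale (SE, adjusted p = 1.71e-07), followed by Gas6 with a fitted 3.74, for which all WT spleen CD11b DC libraries were at 0. Against the floor of 3 reads per library, Gas6 was at least 4.75-fold higher in the CD8a DCs. Stab1 was not called there. Red pulp macrophage markers summed to 35959.5 to 59304.4 in the WT CD8a DC libraries and to 6927.6 to 8175.4 in the WT CD11b ones. Sums of monocyte and macrophage markers overlapped (23247.2 to 33789.0 and 20860.8 to 28304.4). The part of macrophage RNA in this pair was not tested. In lung against spleen CD11b DCs all 9 tested members were higher (21.1% of all genes were called higher and 13.8% lower). Pros1 was higher by 4.05 ± 0.19 (adjusted p = 9.91e-14), Mfge8 by 3.41 ± 0.14 (adjusted p = 9.67e-15) and Lrp1 by 3.47 ± 0.13 (adjusted p = 1.91e-15), while Gas6 was at least 18.5-fold higher. Tissue and cell preparation went together in this pair and cannot be told apart.

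Alveolar macrophages and lung CD11b DCs split the members by gene. In WT, 5 members were higher in alveolar macrophages and 4 lower (24.0% and 27.2% of all genes). Mertk was higher by 5.48 ± 0.37 (adjusted p = 1.27e-11), Pros1 by 2.57 ± 0.17 (adjusted p = 8.4e-12) and Axl by 2.12 ± 0.22 (adjusted p = 2.57e-08), along with Lrp1 and Itgb5. Stab1 was lower by -5.14 ± 0.58 (adjusted p = 8.97e-08), Timd4 by -4.55 ± 0.52 (adjusted p = 1.15e-07) and Mfge8 by -2.91 ± 0.12 (adjusted p = 3.27e-15), along with Gas6. In inflammatory DCs against lung CD11b DCs 7 members were higher and 1 lower (23.7% and 23.8% of all genes). Mertk was again the largest difference, 4.69 ± 0.37 (adjusted p = 5.52e-10), and Timd4 was the lower one (-2.10 ± 0.52, adjusted p = 0.002). Cell type, dust mite treatment and sex-linked reads went together in that pair and cannot be told apart. Conventional DC markers summed to 207571.8 to 244091.3 in WT inflammatory DCs and to 640426.7 to 740114.4 in WT lung CD11b DCs. Monocyte and macrophage markers summed to 253618.1 to 309316.2 and to 119625.0 to 136234.7. The part of these marker differences in the member differences was not tested. The last 3 pairs share the WT lung CD11b DC libraries.

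**Figure D2:**
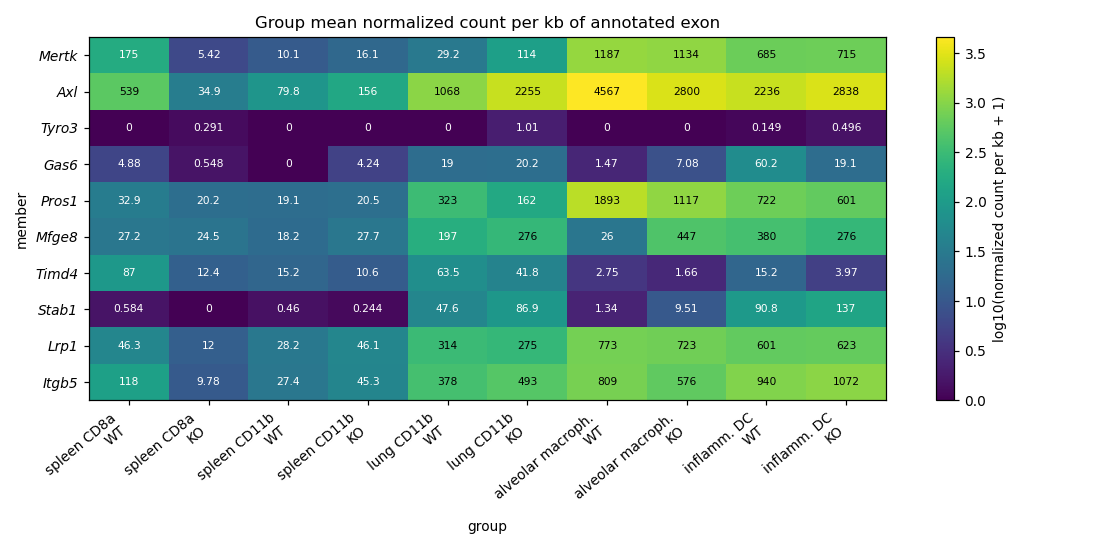
Group mean of the normalized count per kb of annotated exon for each member (rows) in the 10 groups (columns), with colour on a log10 scale of the value + 1. Axl exceeds Mertk and Pros1 exceeds Gas6 in every column, and Tyro3 is at most 1.01 per kb.

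The KO effect was tested next, one cell type at a time, to ask which members differed when mTOR was deleted in antigen-presenting cells. In spleen CD8a DCs, known for cross-presentation of material from dead cells, 5 of the 9 tested members fell and 0 rose, where 1.50% of all tested genes rose and 3.63% fell. The receptors Mertk, Axl, Itgb5, Lrp1 and Timd4 made up the 5. Neither ligand of the TAM receptors, nor Mfge8 or Stab1, was called.

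Mertk, a TAM receptor that drives engulfment, was 605.5 and 911.3 in the 2 WT CD8a DC libraries and 32.6 and 14.4 in the 2 KO libraries. The KO values lay far under both WT values, a 32.7-fold difference (log2 -5.03 ± 0.45, limma adjusted p = 4.59e-08). Axl, the TAM receptor bound by Gas6, was 1699.3 and 3728.3 in WT against 188.9 and 162.1 in KO. Both KO libraries were again below both WT libraries (-3.84 ± 0.27, adjusted p = 7.96e-10). Itgb5 was 263.8 and 573.7 in WT against 41.9 and 27.6 in KO, also without overlap (-3.48 ± 0.33, adjusted p = 7.72e-08). Lrp1 was 712.6 and 927.5 against 211.3 and 215.0, the smallest of these falls but with little spread (-1.93 ± 0.14, adjusted p = 8.25e-10). Timd4, 106.2 and 271.7 in WT against 25.1 and 28.8 in KO, fell by 2.61 on the log2 scale (adjusted p = 0.0146). That call was lost without WT replicate 2 (-1.94, adjusted p = 0.183), without KO replicate 1 (adjusted p = 0.118) and without KO replicate 2 (adjusted p = 0.0769). For the other 4 receptors the calls held in every fit that left out 1 library, but a fit of the 4 CD8a DC libraries alone called 0 of all tested genes (2253 at an unadjusted p under 0.05, against 2319 with all libraries). edgeR and DESeq2 called all 5.

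None of the 3 bridging proteins was called in CD8a DCs, and their difference from the receptors was not tested. Mfge8 was 125.0 and 130.8 in WT against 114.5 and 115.3 in KO, a difference of -0.15 ± 0.15 (adjusted p = 0.712). Pros1 was 170.4 and 98.3 in WT against 80.0 and 85.3 in KO, and the difference of -0.64 ± 0.21 was not called (adjusted p = 0.0757). It was -1.04 without WT replicate 2, the higher Mertk library, and then called (adjusted p = 0.0046), but -0.25 without WT replicate 1. Gas6 and Stab1 were near the detection floor, at most 13.7 and 11.2 in any CD8a DC library, and neither was called (fitted -2.78 and -2.25, adjusted p = 0.096 and 0.0716). DESeq2 called Stab1 (adjusted p = 0.0435), as did limma with a pseudocount of 0.25 (adjusted p = 0.0052) or when WT replicate 1 was left out (adjusted p = 0.00344), at values that ranged from -5.55 to -0.70 over the alternatives.

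Macrophage genes moved in the same libraries as the receptors. Of 12 red pulp macrophage markers 9 fell and 0 rose (median -3.08, against 0.00 over all tested genes), and their summed level was 35959.5 to 59304.4 in WT and 8669.6 to 9209.9 in KO, with Vsig4 at 0 in KO. Of 17 monocyte and macrophage markers 11 fell and 0 rose (median -2.22), with sums of 23247.2 to 33789.0 in WT and 8698.9 to 9554.7 in KO. Spic, the transcription factor of red pulp macrophages, was 1460.3 and 1989.9 in WT against 55.8 and 63.6 in KO. WT replicate 2, the higher WT library for Mertk, Axl, Itgb5, Lrp1 and Timd4, was also the higher one for Spic, Vcam1 and C1qb. Pros1 and Gas6 were higher in WT replicate 1 (170.4 against 98.3 and 13.7 against 11.2). The order of 2 libraries measures no shared source, and these marker genes were named after their values were seen. Of 10 cDC1 markers, which mark CD8a DCs, 1 rose and 0 fell, and Clec9a was 4722.7 and 4706.5 in KO. In bulk samples fewer cells of a type and less RNA per cell cannot be told apart. The part of macrophage RNA in the receptor falls was not tested.

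**Figure D3:**
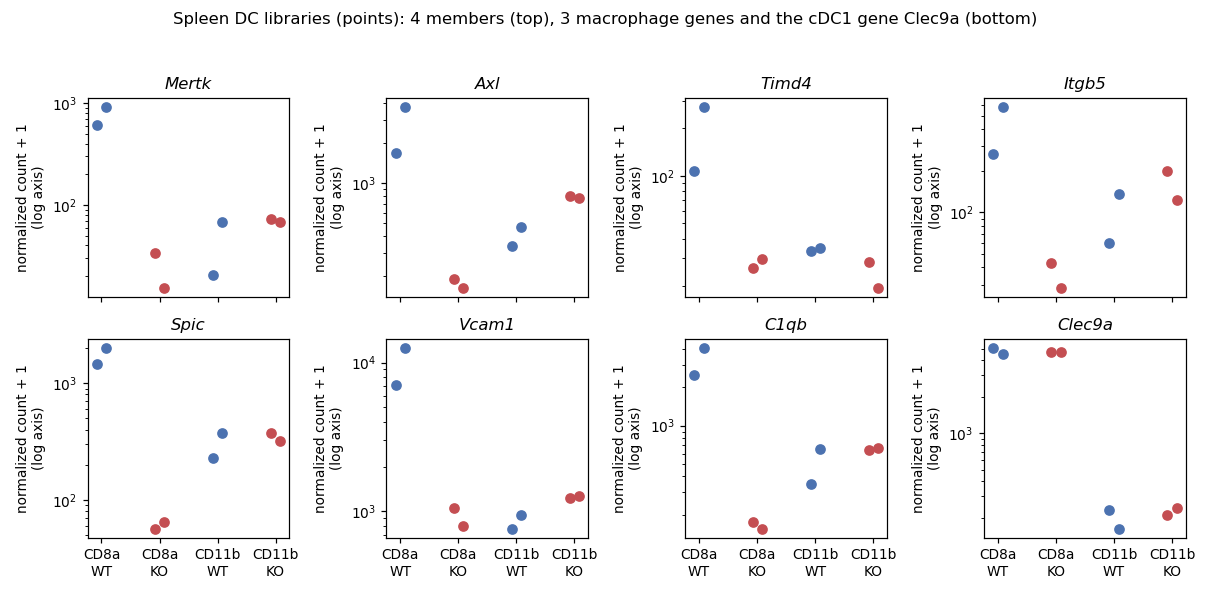
Normalized count + 1 (log axis) in the 8 spleen DC libraries (points; blue WT, red KO) of 4 receptors in the top row and of Spic, Vcam1, C1qb and the CD8a DC marker Clec9a in the bottom row. Spic is 1460.3 and 1989.9 in WT CD8a DCs and 55.8 and 63.6 in KO, whereas Clec9a is 4545.3 to 5036.2 in WT against 4706.5 and 4722.7 in KO.

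Other genes of the pathway were counted from lists chosen by function. Of 20 tested engulfment receptors outside the members 7 fell and 2 rose in CD8a DCs (median -0.37), among them the scavenger receptors Marco (-4.39 ± 0.60, adjusted p = 2.27e-05) and Msr1 (-3.48 ± 0.59, adjusted p = 0.000406) and the co-receptor Cd14 (-2.13 ± 0.25, adjusted p = 3.74e-06). Of 11 other opsonins 4 fell and 0 rose (median -0.09): the complement genes C1qa (-4.60 ± 0.39), C1qb (-4.27 ± 0.36), C1qc (-4.35 ± 0.41) and C3 (-3.59 ± 0.47). Of 14 nuclear receptor and lipid handling genes 7 fell and 0 rose (median -0.58), including Nr1h3 (-4.52 ± 0.31), the LXR alpha receptor, and the cholesterol exporter Abca1 (-3.71 ± 0.49). Corpse digestion genes fell in 5 of 19 cases and rose in 0, with the protease Ctsd at -2.71 ± 0.32. In the signalling list 0 of 15 genes were called by limma, edgeR or DESeq2, with 3 at an unadjusted p under 0.05 in each. Adjusted p-values of the genes named here were at most 0.000406. Several of these genes, C1qa and C1qb among them, are also macrophage markers.

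In spleen CD11b DCs fewer members were called than in CD8a DCs, and the called effects were rises. Of the 9 tested members 2 rose and 0 fell, where 1.28% of all genes rose and 0.233% fell. Lrp1 was 507.8 and 491.8 in the WT libraries and 903.3 and 730.5 in the KO libraries. The groups were separate (0.70 ± 0.14, adjusted p = 0.00886). The call ended without WT replicate 2 (0.68, adjusted p = 0.0982) and without KO replicate 1 (0.55, adjusted p = 0.199). Mfge8 was 89.7 and 81.3 in WT against 119.1 and 140.9 in KO, also separate (0.60 ± 0.15, adjusted p = 0.0478). This call did not hold in edgeR (adjusted p = 0.0939), in DESeq2 (adjusted p = 0.0621) or in any of the 4 fits without 1 library (adjusted p from 0.0754 to 0.397).

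Axl in spleen CD11b DCs was 336.5 and 466.4 in WT against 795.7 and 777.1 in KO, and the separate groups gave 0.99 ± 0.27 with adjusted p = 0.0743, not called. DESeq2 called it (adjusted p = 0.0209). Mertk (72.1 and 67.0 in KO, 19.7 and 67.7 in WT) overlapped. Gas6 went from 0 in both WT libraries to 20.6 and 1.0 in KO, and it was not called (adjusted p = 0.179). Itgb5 (0.79), Pros1 (0.09), Timd4 (-0.53) and Stab1 (-0.73) were not called either. Of 12 red pulp markers 0 were called in these cells by limma, edgeR or DESeq2, and 0 had an unadjusted p under 0.05. Of 17 monocyte and macrophage markers 2 rose and 0 fell, Csf1r (0.87, adjusted p = 0.00371) and Fcgr1 (1.90, adjusted p = 0.0466), with sums of 20860.8 to 28304.4 in WT and 28689.2 to 30599.1 in KO. Interferon-stimulated genes were called in 0 of 16 cases by limma and by edgeR, with 11 and 13 at an unadjusted p under 0.05, and in 2 by DESeq2. The part of these genes' sources in the Lrp1 and Mfge8 rises was not tested. Of the pathway lists, Anxa1, an opsonin exposed on dying cells, was the 1 called gene of its list and fell (-0.82 ± 0.14, adjusted p = 0.00281), and Socs3, a feedback inhibitor induced by TAM signalling, rose (1.31 ± 0.22, adjusted p = 0.00215).

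The KO effects in the spleen DC types differed by test of the difference itself for 5 members, Mertk, Axl, Itgb5, Lrp1 and Gas6, where 2.45% of all genes were called. The CD8a effect was below the CD11b effect by -5.93 ± 0.64 for Mertk (adjusted p = 1.6e-06) and by -2.63 ± 0.19 for Lrp1 (adjusted p = 4.72e-09). The Gas6 call (adjusted p = 0.0234) was lost in 7 of 10 alternatives, among them a pseudocount of 8 (-2.14, adjusted p = 0.239). Of the fits without 1 library it held only without KO replicate 1 of the CD8a DCs and without KO replicate 2 of the CD11b DCs.

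In lung CD11b DCs Mertk and Axl rose and protein S fell. Of the 9 tested members 3 rose and 1 fell, where 12.0% of all genes rose and 14.0% fell. Mertk was 203.7, 112.1 and 64.5 in WT against 334.3, 402.2 and 741.3 in KO. Every KO library was above every WT library (2.02 ± 0.37, adjusted p = 0.000292), a 4.05-fold difference. Axl was 6235.7, 5702.3 and 4193.6 in WT against 12058.0, 9764.8 and 12232.8 in KO, again without overlap (1.09 ± 0.22, adjusted p = 0.000836). Mfge8 rose by less, from 1024.8, 906.2 and 837.6 to 1359.4, 1361.0 and 1172.4 (0.49 ± 0.12, adjusted p = 0.00494). Pros1, the ligand, was 1402.9, 1484.5 and 1068.9 in WT against 702.5, 638.6 and 646.9 in KO. The KO libraries all lay below the WT libraries and close together (-0.98 ± 0.17, adjusted p = 0.000151).

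Stab1 in lung CD11b DCs was 657.6, 582.6 and 228.1 in WT against 755.7, 967.0 and 959.2 in KO, and the difference of 1.00 ± 0.58 was not called (adjusted p = 0.221). Lrp1, Itgb5, Timd4 and Gas6 were not called either, with log2 differences from -0.55 to 0.38. Without the 3 libraries with the fewest detected genes, an alternative added after the data were seen that leaves 2 WT libraries and 1 KO library assumed to vary like the other groups, Pros1 was still called. Mertk was then 1.14 (adjusted p = 0.141), Axl 1.02 (adjusted p = 0.0569) and Mfge8 0.50 (adjusted p = 0.0886). Without KO replicate 1, the library with Y-linked reads, the same 4 members were called, with Mertk at 2.25 and Axl at 1.04.

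Marker and response genes also differed in the lung CD11b DC libraries. All 16 interferon-stimulated genes rose (median 2.86, against -0.05 over all tested genes), with sums of 4193.5 to 4383.2 in WT and 36448.2 to 40376.7 in KO. Of 9 conventional DC markers 4 fell and 1 rose, with sums from 640426.7 to 740114.4 in WT and 389425.8 to 424372.1 in KO, and of 17 monocyte and macrophage markers 5 rose, Ly6c2 by 5.25 ± 0.44, and 1 fell. Of 10 markers of CD11b-type DCs 3 fell and 0 rose, among them Cd209a (-2.57 ± 0.37) and Mgl2 (-2.06 ± 0.27), with sums of 63133.3 to 69839.6 in WT and 24595.9 to 35069.5 in KO. Of 12 red pulp markers 4 fell and 2 rose (sums of 28115.2 to 33454.6 and 9066.3 to 11072.6). Of 14 alveolar macrophage markers 8 fell and 2 rose (sums of 5391.5 to 9773.1 in WT and 6167.1 to 8648.3 in KO). No defining marker of these lists was at 0 in a whole group, and the part of these genes' sources in the member changes was not tested.

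The rest of the pathway changed in both directions in lung CD11b DCs. Of 20 other engulfment receptors 6 rose and 2 fell: the sialic acid receptor Siglec1 rose by 4.05 ± 0.59, the phosphatidylserine receptor Cd300lf by 1.96 ± 0.16 and Msr1 by 2.82 ± 0.48, while Marco fell by 3.54 on the log2 scale. Opsonins rose in 5 of 11 cases and fell in 0, with Lgals3 at 2.06 ± 0.17 and Anxa5 at 0.87 ± 0.08. Corpse digestion genes rose in 10 of 19 cases and 1 fell (median 0.51), with Ctsd at 1.94 ± 0.26 and the lysosomal membrane protein Lamp1 at 1.08 ± 0.14. Signalling genes went the other way, with 8 of 15 lower and 2 higher (median -0.44), among them Dock2 (-0.74 ± 0.11) and Rac2 (-0.67 ± 0.13), which drive actin remodelling. Of 8 shedding and TAM feedback genes 5 rose and 1 fell, including Adam17 (0.46 ± 0.09), a protease known to shed Mertk, and Socs1 (1.56 ± 0.32). Adjusted p-values of the genes named here were at most 0.000999. A fit without the 3 libraries with the fewest detected genes leaves 1 KO library. Fewer genes of each pathway list counted here were then called, as was the case over all tested genes. Fewer monocyte and macrophage, conventional DC, alveolar macrophage, CD11b-type DC and red pulp markers were called as well. The interferon-stimulated genes were all still called higher.

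The largest rise called for any member was that of Mfge8 in alveolar macrophages. Of the 9 tested members 2 rose and 2 fell, where 10.5% of all genes rose and 6.39% fell. Mfge8 was 121.1, 111.5 and 133.4 in WT against 1905.1, 2049.3 and 2340.4 in KO. The KO values were 17.1-fold higher with little spread in either genotype (4.09 ± 0.12, limma adjusted p = 8.44e-17), and they lay above every WT value of lung CD11b DCs (837.6 to 1024.8). Stab1 was 21.7, 4.4 and 15.2 in WT against 49.6, 133.5 and 110.5 in KO. All KO libraries were above all WT libraries, from a low base (2.86 ± 0.58, adjusted p = 0.001), and still below the 228.1 to 657.6 of WT lung CD11b DCs.

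Pros1 and Axl, both abundant in these cells, fell. Pros1 was 7909.2, 7576.6 and 7730.3 in WT against 4274.0, 4459.8 and 4964.0 in KO, with no overlap (-0.76 ± 0.17, adjusted p = 0.00211). Axl was 22937.3, 22850.1 and 23167.0 in WT against 12768.8, 14061.2 and 15453.0 in KO, also separate (-0.71 ± 0.22, adjusted p = 0.0285). The Axl call was lost in 5 of the 6 fits without 1 library (adjusted p from 0.0709 to 0.104), at a log2 fold change between -0.71 and -0.64.

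Mertk in alveolar macrophages was 5314.3, 5285.1 and 4835.5 in WT against 4572.2, 5195.5 and 4981.4 in KO, and the overlapping groups gave -0.07 ± 0.37 (adjusted p = 0.953). Lrp1 also overlapped (-0.10 ± 0.11, adjusted p = 0.651). Itgb5 was 2872.5, 2836.8 and 2912.1 in WT against 1919.3, 1964.2 and 2261.9 in KO, separate but not called (-0.49 ± 0.27, adjusted p = 0.248). With sample weights it was called (adjusted p = 0.0438), as it was in a fit of the 6 alveolar macrophage libraries alone (adjusted p = 0.00553). Of all tested genes, the weighted fit called 2503 higher and 2006 lower, and the fit of 6 libraries 2010 and 1853. The unweighted fit of all libraries called 1397 and 850. Gas6 was 8.0, 1.1 and 2.2 in WT against 8.8, 22.4 and 22.8 in KO, at 2.17 ± 0.77 not called (adjusted p = 0.0553), though DESeq2 called it (adjusted p = 0.0393). Timd4 was at most 9.1 in any library.

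**Figure D4:**
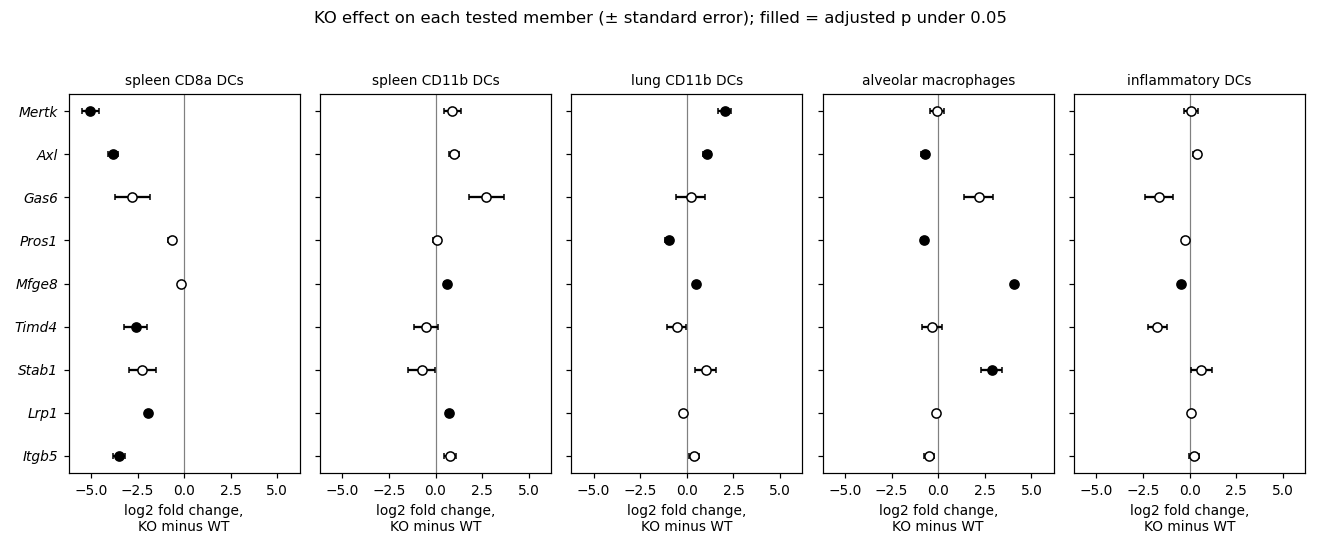
Log2 fold change of KO over WT (horizontal axis) with its moderated standard error for the 9 tested members (rows) in the 5 cell types (panels); filled points passed an adjusted p of 0.05. The filled points of spleen CD8a DCs lie between -5.03 and -1.93, and Mfge8 in alveolar macrophages lies at 4.09.

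Identity markers and other uptake genes changed in the same KO alveolar macrophages. Of 14 alveolar macrophage markers 4 fell and 1 rose (sums of 358258.5 to 368202.8 in WT and 218206.5 to 241459.6 in KO, none at 0). Chi3l3, which was not called, made up most of the WT sum (267927.9 to 277961.5). Of 17 monocyte and macrophage markers 9 rose and 2 fell, and 15 of 16 interferon-stimulated genes rose (median 3.32, against 0.02 over all genes). Markers of other cells rose too: 4 of 6 T and NK cell markers (sums of 7.7 to 13.0 in WT and 57.5 to 100.4 in KO) and 2 of 3 tested neutrophil markers (66.2 to 75.1 and 232.9 to 317.2). Of 10 CD11b-type DC markers 4 rose, among them Itgam by 3.96 ± 0.25, and 1 fell. Of 12 red pulp markers 3 rose and 1 fell. The part of other cells in the Mfge8 and Stab1 rises was not tested. Among 20 other engulfment receptors 6 rose and 3 fell, with Cd93 at 3.08 ± 0.30, Cd300a at 2.28 ± 0.12, Trem2, a lipid receptor, at 2.13 ± 0.27 and the scavenger receptor Cd36 at 1.96 ± 0.20, and Havcr2 (TIM-3) at -0.76 ± 0.10. Opsonins rose in 7 of 11 cases and fell in 0 (median 1.17), C1qa by 2.50 ± 0.32, C1qb by 2.37 ± 0.29 and Lgals3 by 1.17 ± 0.17. Corpse digestion genes were almost all uncalled, with 1 of 19 lower. Of the feedback genes 4 of 8 rose, Socs3 by 1.23 ± 0.18, and 1 fell. Adjusted p-values of the genes named here were at most 1.72e-05.

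The alveolar macrophage and lung CD11b DC effects differed for 3 members, where 16.8% of all genes were called. Mfge8 rose more in alveolar macrophages, by 3.60 ± 0.18 (adjusted p = 5.51e-12). The effects on Axl (-1.80 ± 0.31, adjusted p = 0.000329) and Mertk (-2.08 ± 0.52, adjusted p = 0.00735) were lower there than in lung CD11b DCs. Without the 3 lung CD11b DC libraries with the fewest detected genes the Mertk difference was -1.21 and not called (adjusted p = 0.182). For Pros1, which fell in both, the difference of 0.22 ± 0.24 was not called (adjusted p = 0.603).

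In inflammatory DCs of dust mite treated mice 1 member was called, the bridging protein Mfge8. Of the 9 tested members 1 fell and 0 rose, where 1.45% of all genes rose and 1.92% fell. Mfge8 was 1609.2, 2069.7 and 1676.0 in WT against 1452.7, 1256.3 and 1180.7 in KO. The groups were separate (-0.46 ± 0.12, adjusted p = 0.0413), and the call was lost in 5 of the 6 fits without 1 library (adjusted p from 0.0569 to 0.195). Gas6 was 107.6, 193.3 and 159.1 in WT against 46.0, 65.0 and 35.2 in KO, also separate, but its difference of -1.64 ± 0.77 was not called (adjusted p = 0.344).

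Timd4 in inflammatory DCs was 15.1, 39.1 and 45.0 in WT against 7.7, 11.9 and 6.3 in KO, separate as well and not called by limma (-1.73 ± 0.52, adjusted p = 0.076). edgeR (adjusted p = 0.0413) and DESeq2 (adjusted p = 0.0111) called it. Stab1 was 637.4, 1136.7 and 1029.6 in WT against 1332.0, 1603.9 and 1305.2 in KO. It was separate and higher in KO, but not called (0.63 ± 0.58, adjusted p = 0.752). Mertk, Lrp1, Itgb5, Pros1 and Axl overlapped between genotypes, with log2 differences from -0.26 to 0.38. Of 14 alveolar macrophage markers 5 fell and 0 rose, with sums of 823136.9 to 1200294.6 in WT and 444672.3 to 1063054.0 in KO. Chi3l3, which was not called, made up most of the WT sum (784486.7 to 1135997.0). Conventional DC markers fell in 5 of 9 cases, among them Flt3 (-2.11 ± 0.36), Ccr7 (-1.64 ± 0.24) and Dpp4 (-1.38 ± 0.21), and 1 rose (sums of 207571.8 to 244091.3 and 211700.5 to 313159.3). Of 12 red pulp markers 4 fell and 0 rose. The part of these genes' sources in the Mfge8 fall was not tested. Of 16 interferon-stimulated genes 0 were called by limma, edgeR or DESeq2, with 1 at an unadjusted p under 0.05 in limma and 2 in the others. Among the called genes of the pathway lists, Marco (-1.81 ± 0.49, adjusted p = 0.039) and Calr, the calreticulin gene (-0.34 ± 0.09, adjusted p = 0.0404), fell, and Cybb, the catalytic NADPH oxidase subunit used in the phagosome, rose (0.76 ± 0.13, adjusted p = 0.00162).

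The inflammatory DC effect differed from the lung CD11b DC effect for Mertk, Mfge8 and Pros1, where 13.0% of all genes were called. The Pros1 difference (0.72, adjusted p = 0.0482) lost its call in 9 of 15 alternatives; of the fits without 1 library it held only without WT replicate 3 or KO replicate 1 of the lung CD11b DCs and WT replicate 1 or KO replicate 2 of the inflammatory DCs. Without the 3 lung CD11b DC libraries with the fewest detected genes Mertk was -1.08 and not called (adjusted p = 0.278). Lung and spleen CD11b DCs differed for Lrp1 (-0.89 ± 0.18, adjusted p = 0.00222) and Pros1 (-1.07 ± 0.27, adjusted p = 0.00996), where 12.5% of all genes were called, and the Pros1 call ended without spleen KO replicate 1 (-0.90, adjusted p = 0.0719). Lung CD11b DCs and spleen CD8a DCs differed for 6 members, where 16.8% were called, with Mertk at 7.05 ± 0.58 (adjusted p = 1.31e-08). Of these, Stab1 (3.25, adjusted p = 0.0176) lost its call in 6 of 13 alternatives, at values from 1.69 to 6.43, including without CD8a WT replicate 2 (1.89, adjusted p = 0.164) and without either CD8a KO replicate. Mfge8 (0.65, adjusted p = 0.026) lost it in 5 of 13, including without CD8a WT replicate 2, either CD8a KO replicate or lung KO replicate 2. These comparisons share the lung CD11b DC libraries.

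The 3 genes with the group profile most like each member's were found by Pearson correlation over the 10 group means, among 9611 genes, as a description. Mertk was most like Pld3 (0.987), Gpaa1 (0.981) and Pla2g15 (0.980), and Axl most like Il1a (0.986), Trim47 (0.982) and Cd151 (0.981). Pros1 came closest to Sepn1 (0.995), Stab1 to C3ar1 (0.995), Lrp1 to Pald1 (0.986), Itgb5 to Srxn1 (0.987), Mfge8 to Eps8 (0.976), Gas6 to Mmp13 (0.938) and Timd4 to Padi2 (0.935). Among the members, Axl and Itgb5 had the most similar profiles (0.99), whereas Timd4 ran against Pros1 (-0.52) and Mertk (-0.49). The points share libraries and size factors.

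All members are annotated as protein coding in GENCODE M21 (GRCm38). Mertk lies at chr2:128698956-128802894, Axl at chr7:25757273-25788705 and Mfge8 on the same chromosome at chr7:79133768-79149060. Pros1 lies at chr16:62854307-62929346 and Stab1 at chr14:31139013-31168641. Exons of Stab1 overlap 112 bases of Nt5dc2 on the other strand, 1.1% of its exon length, and those of Gas6 overlap 34 bases of Tmem255b (1.3%), so reads there cannot be told apart without strand. No other member shared exon sequence with a neighbour.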

How the data were processed

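The submitters' processing notes name STAR 2.3.1s, HTSeq, DESeq2 1.10.1 and the build mm10. Annotation, strand and HTSeq version are not given in the sources used here. Deposited values are a signal per gene and library, DESeq2-normalized counts. Size factors recovered from their steps (0.754 to 1.48) gave whole reads for 100% of values (tolerance 1e-06). limma 3.58.1 in R 4.3.3 fitted log2(normalized count + 1) with 10 group means over 26 libraries and a mean-variance trend. edgeR 4.0.16 and DESeq2 1.42.0 on recovered reads were alternatives. Genes with at least 10 in 2 libraries were tested, 13311 in all, with Benjamini-Hochberg adjustment per comparison. Errors beside log2 values are moderated standard errors. The steps were tested on simulated data. Members and lists were chosen with earlier results of these data known. All members were named whatever their values. From each other list up to 5 called genes with the smallest p were eligible per KO effect, and Spic, Vcam1, C1qb, Vsig4, Clec9a, Chi3l3 and Xist were also named after their values were seen, as markers. Levels between genes were compared per kb of GENCODE M21 exon. Promoters came from RefSeq (GRCm38.p6), with all 10 members matched by symbol and strand.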

Additional observations from a re-analysis of the deposited data

Results flagged for a closer look

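These member results had a KO effect that differed between 2 cell types by a test of the difference itself (limma, adjusted p under 0.05); each value is the first cell type's log2 effect minus the second's. Spleen CD8a minus spleen CD11b DCs gave -5.93 for Mertk, -4.83 for Axl, -4.27 for Itgb5, -2.63 for Lrp1 and -5.49 for Gas6. The Gas6 value depends on the pseudocount, since all WT CD11b libraries were at 0, and its call was lost in 7 of 10 alternatives (-9.35 to -2.14). Lung minus spleen CD11b DCs gave -0.89 for Lrp1 and -1.07 for Pros1. Alveolar macrophages minus lung CD11b DCs gave 3.60 for Mfge8, -1.80 for Axl and -2.08 for Mertk. Inflammatory DCs minus lung CD11b DCs gave 0.72 for Pros1, -1.96 for Mertk and -0.95 for Mfge8, and the Pros1 call was lost in 9 of 15 alternatives. Lung CD11b minus spleen CD8a DCs gave 7.05 for Mertk, 4.93 for Axl, 3.86 for Itgb5, 3.25 for Stab1, 1.73 for Lrp1 and 0.65 for Mfge8, with the call lost in 6 of 13 alternatives for Stab1 and 5 of 13 for Mfge8. Library sex, detected genes and macrophage markers, given beside each cell type's results, differ along with several of these comparisons, and their part was not tested. Mtor itself also differed between KO effects by limma, at 1.66 for lung minus spleen CD11b DCs (adjusted p = 0.00308). It was -1.32 for alveolar macrophages minus lung CD11b DCs (adjusted p = 0.00439) and 2.23 for lung CD11b minus spleen CD8a DCs (adjusted p = 8.22e-05). Its difference was not called for spleen CD8a minus spleen CD11b DCs (-0.57) or inflammatory minus lung CD11b DCs (-0.04). The part of unequal Mtor loss was not tested.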

How the results depend on the processing

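The 16 called member effects were refitted in 230 alternatives: 193 kept call and sign, 37 lost the call and 0 changed sign. The 29 uncalled effects gained a call in 16 of 416. With each comparison's own libraries only, the members called fell from 5 to 0 in spleen CD8a DCs and from 2 to 0 in spleen CD11b DCs. They fell from 4 to 2 in lung CD11b DCs and from 1 to 0 in inflammatory DCs. Those fits have fewer samples. Over all tested genes they called 0 in both spleen DC types and in inflammatory DCs. In lung CD11b DCs they called 500 genes higher and 356 lower, against 1602 and 1869 with all libraries. In alveolar macrophages they called 2010 and 1853, against 1397 and 850. With a pseudocount of 8 and with edgeR, 1 member was called in spleen CD11b DCs and 2 in inflammatory DCs, and DESeq2 gave 2 in inflammatory DCs. Over all tested genes the pseudocount of 8 called 156 higher and 42 lower in spleen CD11b DCs, and edgeR 128 and 20. In inflammatory DCs the pseudocount of 8 called 254 and 322, edgeR 202 and 247, and DESeq2 289 and 356. Without the 3 lung CD11b DC libraries with the fewest detected genes, 1 was called there and 1 in the difference between inflammatory and lung CD11b DCs, with fewer samples. Leaving out 1 library gave 0 to 1 in spleen CD11b DCs, 0 to 1 in inflammatory DCs and 1 to 3 for the difference between lung and spleen CD11b DCs. Over all tested genes those fits called 27 to 182 higher and 2 to 42 lower in spleen CD11b DCs, against 171 and 31 with all libraries. In inflammatory DCs they called 89 to 171 and 112 to 268, against 193 and 255. For the difference they called 400 to 1066 and 391 to 1426, against 780 and 879. Sign differed in some fits, uncalled throughout, for Gas6 in lung CD11b DCs (-0.41 with sample weights, -1.30 without the 3 libraries, -0.53 to 0.58 without 1 library) and for Stab1 between WT spleen DCs (0.05 with pseudocount 8, 0.23 with edgeR, -1.53 to 1.18 without 1 library). Without 1 library the range was -0.08 to 0.26 for Pros1 in spleen CD11b DCs, -1.05 to 0.09 for Timd4 in alveolar macrophages and -0.01 to 0.13 for Mertk in inflammatory DCs. The cause of these changes was not tested. Depth limits Tyro3, Gas6 and spleen Stab1. No paired analysis was run, because the labels do not pair libraries. Sex-linked reads of the spleen KO libraries matched by replicate number between CD8a and CD11b DCs. Whether the 2 DC types came from the same mice is not given and was not tested. The fits treated their libraries as independent.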
